A study of Arabidopsis thaliana with 6 samples.

Results

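QQS (AT3G30720) and NF-YC4 (AT5G63470) are a pair of *Arabidopsis* genes whose proteins bind each other, and they are described here as 2 of the 24509 transcripts that had a read in any library. The pair was selected on its values in this same comparison, QQS as the largest rise (among transcripts with a mean of at least 10 CPM) and NF-YC4 as its protein partner, so the levels and differences of both genes are given as a description, with no test. Embryos were dissected from seeds of homozygous *atwri1-1* (wrinkled1-1) plants and of WT plants of the Col-0 ecotype, 8 d after pollination. RNA-Seq was performed on 3 biological replicates of each genotype, each made from 25 to 30 pooled embryos. The *atwri1-1* mutation affects WRINKLED1 (WRI1), a transcription factor that activates fatty acid biosynthesis genes. WRI1 mRNA itself was higher in the libraries labelled *atwri1-1* (1256, 1100 and 1042 CPM, reads per 1000000 reads of the scaled library) than in WT (186, 148 and 166 CPM). The mRNA level does not show whether the protein works, and every direction below rests on the labels. BCCP2 and PKP-BETA1, fatty acid synthesis genes that WRI1 is known to activate, were lower in the same libraries, at 23.9 to 35.8 against 1074 to 1701 CPM and at 244 to 259.5 against 1796 to 2728 CPM.

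QQS is an orphan gene, meaning that no related gene is known outside *Arabidopsis thaliana*, and it encodes a very small protein. In *Arabidopsis* leaves, a higher level of QQS or of NF-YC4 shifts carbon and nitrogen from starch toward protein. NF-YC4 is a C subunit of Nuclear Factor Y, a complex of A, B and C subunits that binds the CCAAT sequence in promoters. QQS is also known as a naturally variable epiallele, since its mRNA level differs among Col-0 plants with the DNA methylation of its promoter. No methylation was measured in these embryos.

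QQS lies on the + strand of chromosome 3 (chr3:12349047-12349900, TAIR10.1), in 3 exons that make a 654-base transcript. Exon 1 is wholly 5' UTR, the reading frame starts in exon 2 and ends in exon 3, and its 180 bases encode 59 residues. The reading frame is shown because its length sets QQS apart from most genes that were tested. The start and stop codons are in capitals.
QQS coding sequence, spliced from chr3:12349461-12349726: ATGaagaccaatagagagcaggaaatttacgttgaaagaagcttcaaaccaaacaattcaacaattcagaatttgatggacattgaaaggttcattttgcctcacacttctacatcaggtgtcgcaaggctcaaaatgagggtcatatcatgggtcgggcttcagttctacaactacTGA
All stretches of 31 bases in the QQS transcript (100%) were found in no other counted transcript. Only exact matches were searched, whereas the mapping allowed at most 2 mismatches, and the rest of the genome was not searched.

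The 250 bases before the QQS start site are shown because they hold the CCAAT motif that Nuclear Factor Y binds, which is in capitals (ATTGG is the same motif on the opposite strand).
QQS upstream, chr3:12348797-12349046: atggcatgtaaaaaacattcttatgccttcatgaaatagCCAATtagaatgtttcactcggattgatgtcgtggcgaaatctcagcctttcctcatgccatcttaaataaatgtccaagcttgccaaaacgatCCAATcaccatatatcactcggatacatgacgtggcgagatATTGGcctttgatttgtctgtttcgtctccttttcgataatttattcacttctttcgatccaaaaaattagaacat
The motif stood at -211 and -117 on the strand of the gene and at -76 on the other strand, counted from the start site to the first base of each match. At least 1 CCAAT was found in the same window of 46.0% of 27394 protein-coding genes, so its presence was common. The first pair lay in the most alike pair of non-overlapping stretches of 40 bases in this window, called the repeat here. The stretches were picked for their identity, and other promoters were not searched in this way. The stretches of 40 bases at chr3:12348834-12348873 and chr3:12348928-12348967 were identical at 31 positions (77.5%).
QQS repeat, upstream copy: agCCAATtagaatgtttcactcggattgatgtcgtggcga
QQS repeat, downstream copy: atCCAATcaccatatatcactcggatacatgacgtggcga
Neither the AW Box (CNTNGNNNNNNNCG), to which WRI1 binds in vitro, nor the CNC Box (CNCCNCC), a motif found at sites of soybean WRI1, was found on either strand within 500 bases before or after the QQS start site. The AW Box was present within 500 bases before the start of 18.4% of genes and within 500 bases after it in 40.01%, and the CNC Box in 20.7% and 48.2%. The G Box (CACGTG) and the RY motif (CATGCA) were not found in these windows either.

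NF-YC4 lies on the - strand of chromosome 5 (chr5:25415600-25417199), in 2 exons, and its 1305-base transcript encodes 250 residues. It held 4 AW Boxes within 500 bases upstream, which are shown because that motif was absent from QQS. All 4 lay within exon 1 of the neighbouring gene AT5G63480, which runs in the opposite direction. The letters read 5' to 3' on the strand of NF-YC4, and the position is that of the first base from the start site.
NF-YC4, position -369, motif on the opposite strand: CGAATGATGCGATG
NF-YC4, position -337: CATCGGCGGAAACG
NF-YC4, position -153: CATCGTCGTCGTCG
NF-YC4, position -150: CGTCGTCGTCGTCG
The last pair overlap each other. Within 500 bases after its start site NF-YC4 had no AW Box, while 40.01% of genes had at least 1 there. NF-YC4 also had 5 overlapping CNC Boxes upstream and 10 downstream, 1 CCAAT upstream and 3 downstream, and no G Box or RY motif. A match is a description of the sequence, and binding was not measured in these embryos.

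QQS mRNA was high in all 3 libraries labelled *atwri1-1* and close to the detection limit in WT. The *atwri1-1* libraries held 518, 375 and 252 QQS reads, and the WT libraries held 6, 0 and 6. After scaling, the levels were 47.4, 18.5 and 28.4 CPM in *atwri1-1* and 0.471, 0 and 0.518 CPM in WT. The groups did not overlap, and the lowest *atwri1-1* library was 35.7 times the highest WT library. The means were 31.4 ± 14.7 CPM (SD, n = 3) and 0.330 ± 0.286 CPM (SD, n = 3), a ratio of 95.3, and the fitted log2 fold change was 6.50 (SE 0.658). The 12 WT reads together gave 0.337 CPM, with an exact Poisson 95% interval of 0.174 to 0.588 CPM. That interval covers counting error only. It treats reads as independent, which amplification of the cDNA before fragmentation does not ensure, so it can be too narrow. The mean of *atwri1-1* was 53.4 times the upper bound of that interval. In WT replicate 2, where no read was found, a floor of 3 reads corresponds to 0.265 CPM, and against it QQS was at least 69.7-fold higher in *atwri1-1* replicate 2. Between the libraries numbered 1 the ratio was 100.5, and between those numbered 3 it was 54.9. In RNA from whole embryos, more mRNA per cell and more cells that hold the mRNA cannot be told apart.

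**Figure D1:**
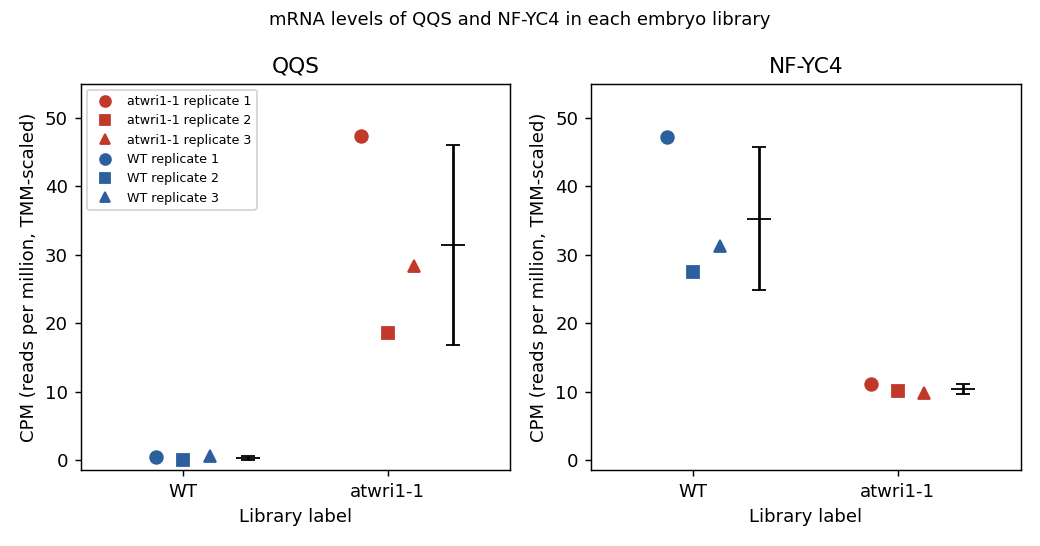
mRNA level in CPM on linear axes of QQS (left) and NF-YC4 (right) in each of the 6 libraries. Points are libraries, and the black mark and bar give the mean and SD of 3 libraries. QQS was at 18.5 to 47.4 CPM in *atwri1-1* and at 0 to 0.518 in WT, whereas NF-YC4 was at 9.81 to 11.2 CPM in *atwri1-1* and at 27.4 to 47.2 in WT.

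The *atwri1-1* libraries also differed among themselves in QQS. Replicate 1 was 2.56 times replicate 2, and 98.3% of the 9970 transcripts with a mean of 10 to 100 CPM in these libraries had a smaller ratio of highest to lowest library. Ranked by CPM per kilobase among 18052 transcripts, QQS stood at places 1401, 4100 and 2556 in the *atwri1-1* libraries and between 16946 and 18040 in WT. QQS was thus among the scarcest ranked transcripts in WT and among the more abundant ones in *atwri1-1*, a contrast that the choice of QQS fixed.

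As a rise, the fitted value of QQS was the third among the 18241 transcripts tested, of which 197 (1.08%) were called higher and 968 (5.31%) lower. Transcripts were called where the adjusted p (Benjamini-Hochberg, over all tested) did not exceed 0.05 and the log2 fold change lay more than 1 from 0. Just ahead of QQS were SULTR3;5, a member of the sulfate transporter family (9.29, SE 1.71), and AT1G48800, a terpenoid cyclase family gene (6.88, SE 0.903). Neither had a read in any WT library, so their fitted values depend on the prior count. Just behind came MRD1, whose log2 fold change was 5.89 (SE 0.725) and whose levels were at most 2.32 CPM. Among the 12287 transcripts with a mean of at least 10 CPM, QQS was first, a place that its selection and this limit fix, since it passes the limit only through its *atwri1-1* level. The next was ALMT1, a malate transporter gene, at 4.38. QQS and NF-YC4 each moved beyond the calling limits, 1 higher and 1 lower, which the choice of the pair fixed and from which nothing is read.

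NF-YC4 mRNA was low in all 3 libraries labelled *atwri1-1* and higher in all 3 WT libraries. The *atwri1-1* libraries held 122, 203 and 87 NF-YC4 reads and the WT libraries 601, 310 and 362. The levels were 11.2, 10.01 and 9.81 CPM in *atwri1-1* and 47.2, 27.4 and 31.2 CPM in WT. The lowest WT library was 2.46 times the highest *atwri1-1* library, and non-overlapping groups were found for 35.0% of all tested transcripts. The means were 10.3 ± 0.728 CPM (SD, n = 3) in *atwri1-1* and 35.3 ± 10.5 CPM (SD, n = 3) in WT, a ratio of WT to *atwri1-1* of 3.42, and the log2 fold change was -1.77 (SE 0.229). WT replicate 1 stood above the other WT libraries, and without it the log2 fold change was -1.51 (SE 0.123). The ratio of WT to *atwri1-1* was 4.23, 2.74 and 3.18 for the libraries numbered 1, 2 and 3. Among the 968 transcripts called lower, the fall of NF-YC4 was ordinary in size, at place 463. Among all 18241 tested transcripts it was at place 533 from the largest fall. Its highest and lowest *atwri1-1* libraries differed by a ratio of only 1.14, and 35.3% of the same 9970 transcripts had a smaller one.

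The 6 libraries held 8510887 to 18933870 reads on transcripts. The row of reads that named no transcript took 86.6% of *atwri1-1* replicate 1 and between 39.6% and 45.0% of the other libraries. *atwri1-1* replicate 1 was the library with the highest QQS level. Without it the log2 fold change of QQS was 6.08 (SE 0.661) and that of NF-YC4 was -1.83 (SE 0.288). The fitted value of QQS was lowest without WT replicate 2, the library with no QQS read, at 5.96, and highest without WT replicate 3, at 6.93. For NF-YC4 the same range ran from -1.93 to -1.51. Under 7 other scalings, filters and models the values were 6.49 to 6.92 for QQS and -1.79 to -1.58 for NF-YC4.

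**Figure D2:**
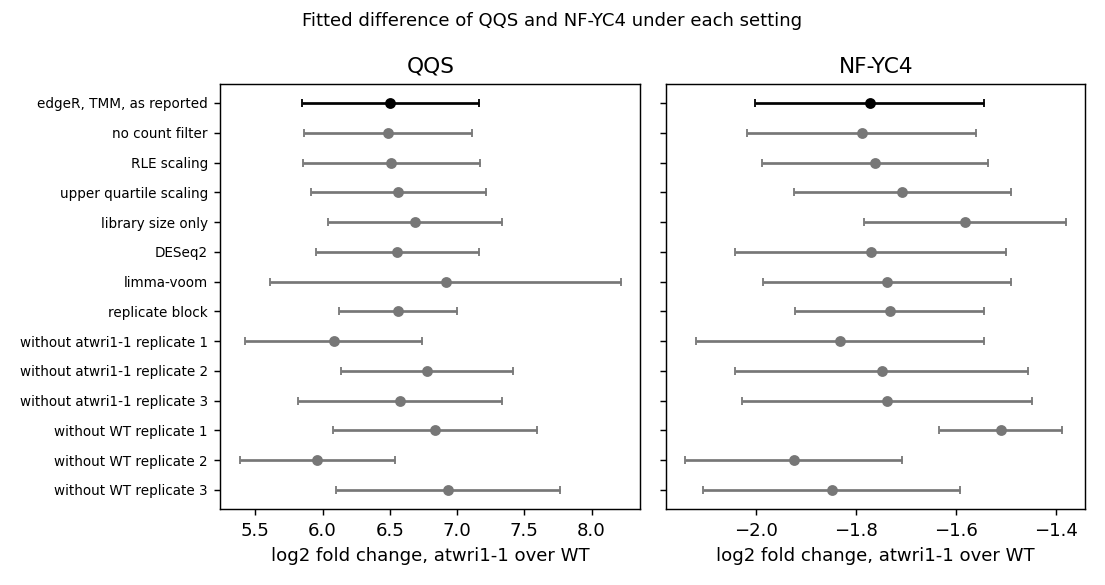
Fitted log2 fold change of *atwri1-1* over WT for QQS (left) and NF-YC4 (right) as reported (black) and under 13 alternatives (grey), with bars of 1 SE. All QQS values lay between 5.96 and 6.93 and all NF-YC4 values between -1.93 and -1.51.

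Because dissected embryos can carry other seed tissue, markers of 3 tissues were examined beside QQS. Of 7 endosperm markers, 5 were tested, 2 were called higher and none lower, and the list median was 1.31 on the log2 scale. Over all tested transcripts, 1.08% were called higher and 5.31% lower, and these shares stand beside the counts of every list below. FWA, an imprinted homeobox gene that DNA methylation silences outside the endosperm, was at 3.29, 1.28 and 1.13 CPM in *atwri1-1* and 0.393, 0.265 and 0.345 CPM in WT (log2 fold change 2.46, SE 0.582, edgeR adjusted p = 0.0397). AGL62, which delays endosperm cellularization, was at 1.55, 1.43 and 2.14 CPM against 0.393, 0.265 and 0.690 CPM (1.89, SE 0.472, edgeR adjusted p = 0.0475). Both calls rested on 72 and 65 *atwri1-1* reads and 12 and 16 WT reads. The call of FWA was lost by limma-voom and without any 1 of the 3 *atwri1-1* libraries, WT replicate 2 or WT replicate 3. The call of AGL62 was lost by limma-voom, with no count filter and without any 1 of the 6 libraries. It was also lost with the replicate number as a block (1.95, SE 0.451, edgeR adjusted p = 0.0544). EPR1, the most abundant endosperm marker, was not called (-0.62, SE 0.802), and its levels of 161, 39.5 and 104 CPM in *atwri1-1* overlapped those of 344, 41.0 and 80.7 CPM in WT. ZOU, a regulator of endosperm breakdown, was at 29.9, 8.97 and 14.0 CPM in *atwri1-1* and 6.05, 6.72 and 8.45 CPM in WT. Its groups did not overlap, like those of 35.0% of all tested transcripts. Within *atwri1-1*, ZOU had the order of the QQS levels. It was not called by edgeR (1.31, SE 0.434, adjusted p = 0.112), was past the threshold by DESeq2 (adjusted p = 0.0280) and stood at 0.69 without *atwri1-1* replicate 1. FIS2 was not called (0.11, SE 0.396). PHE1 was at 0 in *atwri1-1* and had 5 reads in WT, and MEA had 5 and 11 reads. The summed level of the list was 54.4 to 200.0 CPM in *atwri1-1* and 52.7 to 353 CPM in WT. In each genotype replicate 1 had the highest sum and replicate 2 the lowest. EPR1 made up most of this sum in every library. QQS followed the same order in *atwri1-1*, while the WT library with the highest sum had 6 QQS reads. The summed seed coat markers also had that order in *atwri1-1* (470, 322 and 385 CPM in replicates 1, 2 and 3). In WT they did not (345, 356 and 387 CPM). The order within *atwri1-1* was thus not particular to endosperm markers. The part of endosperm or seed coat RNA in the QQS level was not tested.

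None of the 6 tested seed coat markers, of 8 listed, was called, and their median log2 fold change was -0.38. Their summed level was 322 to 470 CPM in *atwri1-1* and 345 to 387 CPM in WT, led by the subtilase gene SBT1.7, and BAN and TT10, marker genes of seed coat pigment, were present in every library. All 7 embryo markers were tested, with a median of 0.31 and none called lower, and 1 was called higher. This was LEC2, a regulator of embryo maturation, at 22.4 ± 2.46 CPM against 10.9 ± 1.72 CPM (SD, n = 3 each, edgeR adjusted p = 0.0129). That call was lost without *atwri1-1* replicate 1, *atwri1-1* replicate 2 or WT replicate 1. OLEO1, an oil body protein gene and the most abundant embryo marker, was not called (0.70, SE 0.219). Of the 7, 6 had a log2 fold change above 0, and CRA1 was below it and not called (-0.58, SE 0.729). CRA1 varied widely, at 249, 556 and 2270 CPM in *atwri1-1* and 1068, 1409 and 2114 CPM in WT.

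Within the NF-YC family, NF-YC4 was the member with the largest fall. It was chosen with its fall known, so nothing is read from that place or from its call. Of 13 NF-YC genes, 12 had reads, 9 were tested, 2 were called lower (NF-YC4 and NF-YC1) and none higher. Apart from the chosen NF-YC4, only NF-YC1 was called, and 5.31% of all tested transcripts were called lower. The median log2 fold change of the 9, NF-YC4 included, was -0.28, against -0.01 for all tested transcripts. NF-YC1, the gene closest to NF-YC4 in sequence here, with which it shares 39 stretches of 31 bases, fell from 8.40, 10.5 and 11.6 CPM in WT to 4.66, 4.54 and 5.19 CPM in *atwri1-1*. Its log2 fold change was -1.09 (SE 0.212, edgeR adjusted p = 0.0200), and the call was lost without any 1 of the *atwri1-1* libraries, WT replicate 2 or WT replicate 3. NF-YC3 and NF-YC9 had adjusted p-values by edgeR of 0.0109 and 0.0393, but differences of -0.68 (SE 0.113) and -0.62 (SE 0.147) that were short of the fold limit. With the replicate number as a block, NF-YC9 had an edgeR adjusted p of 0.0664. Neither gene overlapped between groups, which was also so for 35.0% of all tested transcripts. NF-YC3 was at 38.4, 41.5 and 39.5 CPM in *atwri1-1* and 65.4, 63.5 and 62.1 CPM in WT.

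NF-YC12 had a positive log2 fold change and was not called. Its levels were 49.3, 19.0 and 17.5 CPM in *atwri1-1* and 16.9, 11.9 and 12.7 CPM in WT (1.04, SE 0.412, edgeR adjusted p = 0.168), and like QQS it was highest in *atwri1-1* replicate 1, without which its log2 fold change was 0.40. NF-YC10, NF-YC11 and NF-YC13 were not called, with log2 fold changes of -0.28, 0.22 and -0.25. NF-YC2 was not called either (0.35, SE 0.293), and its value is uncertain because only 3.05% of its 31-base stretches are unique, the rest being shared with AT1G56180. NF-YC5, NF-YC6 and NF-YC8 had 4, 14 and 14 reads in all and did not enter the test, and NF-YC7 had none.

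**Figure D3:**
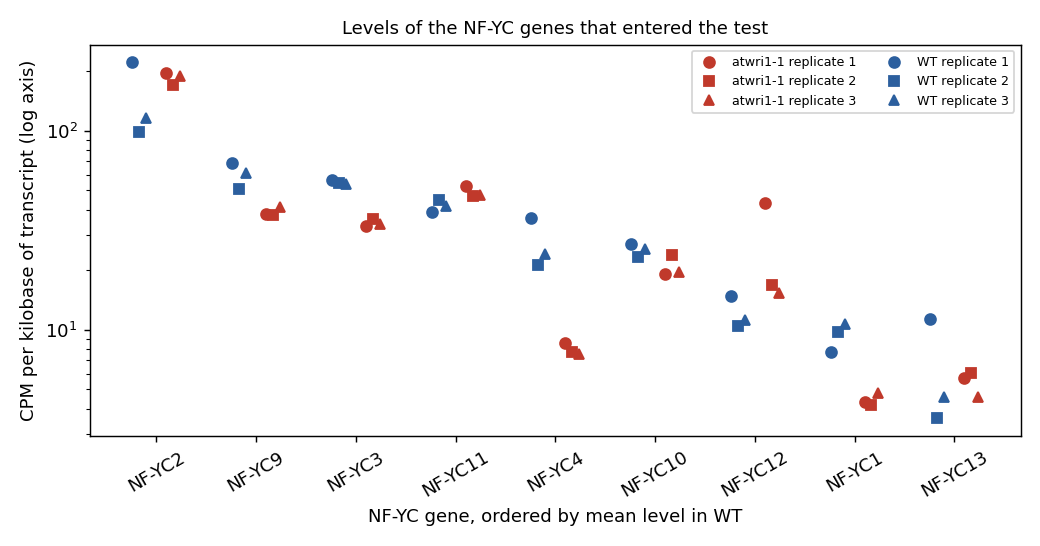
Level of the 9 tested NF-YC genes in CPM per kilobase of transcript on a log axis, with 1 point per library and the genes ordered by their WT mean. NF-YC4 was at 21.0 to 36.2 CPM per kilobase in WT and at 7.52 to 8.55 in *atwri1-1*.

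On a scale per kilobase of transcript, NF-YC4 was the fifth NF-YC gene in WT, at a mean of 27.0 ± 8.05 CPM per kilobase (SD, n = 3). NF-YC11 was next above it at 41.9 ± 2.97 without overlap, and NF-YC10 was next below at 25.2 ± 1.96 with overlapping libraries. In *atwri1-1* it was the seventh, at 7.91 ± 0.558 CPM per kilobase, below NF-YC10 (20.7 ± 2.52) and above NF-YC13 (5.46 ± 0.779), with no overlap on either side. NF-YC4 supplied 13.9%, 9.60% and 10.3% of the summed level of the family without NF-YC2 in WT, and 4.16%, 4.29% and 4.30% in *atwri1-1*. The means were 11.2 ± 2.30% and 4.25 ± 0.0809% (SD, n = 3 each). With the uncertain NF-YC2 included in the sum, the share was 7.52%, 6.62% and 6.86% in WT and 2.14%, 2.197% and 2.07% in *atwri1-1*.

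Among the B subunits, which form the dimer with NF-YC, 10 of 13 were tested, 2 were called lower and none higher, with a median of -0.02. L1L (LEC1-LIKE), a B subunit of seeds that promotes storage gene expression, fell from 436, 242 and 254 CPM in WT to 23.2, 14.9 and 30.4 CPM in *atwri1-1* (-3.77, SE 0.355, edgeR adjusted p = 0.00125). NF-YB3, known for a role in flowering, fell from 11.0, 9.46 and 10.5 CPM to 3.84, 2.37 and 4.06 CPM (-1.61, SE 0.265, edgeR adjusted p = 0.0105). LEC1, the paralog of L1L that controls embryo development, was at 72.8 ± 14.0 CPM in *atwri1-1* and 41.8 ± 15.2 CPM in WT (SD, n = 3 each) and was not called. Of the A subunits, which carry the contact with CCAAT, 9 of 10 were tested and none was called. Of these, 8 had a log2 fold change above 0, and the median was 0.25. The most abundant, NF-YA3, was at 162 ± 12.9 against 155 ± 9.33 CPM (SD, n = 3 each).

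Of 9 genes for proteins known to bind NF-YC subunits, all were tested, 1 was called higher and 1 lower. bZIP67, a seed transcription factor that acts with NF-YC2 and L1L on storage protein promoters, fell from 83.4, 62.3 and 61.5 CPM in WT to 0.823, 0.296 and 1.13 CPM in *atwri1-1* (-6.68, SE 0.394, edgeR adjusted p = 0.000230). This fall was similar in size to the rise of QQS, and it remained called under all 13 alternatives. ABI5, an abscisic acid response factor, was at 8.87, 13.9 and 15.2 CPM against 5.50, 6.46 and 6.56 CPM (1.04, SE 0.247, edgeR adjusted p = 0.0407). That call was lost by limma-voom and without *atwri1-1* replicate 2, *atwri1-1* replicate 3 or any 1 of the WT libraries. REF6, a histone demethylase gene and the most abundant of the 9, was not called (0.08, SE 0.241).

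**Figure D4:**
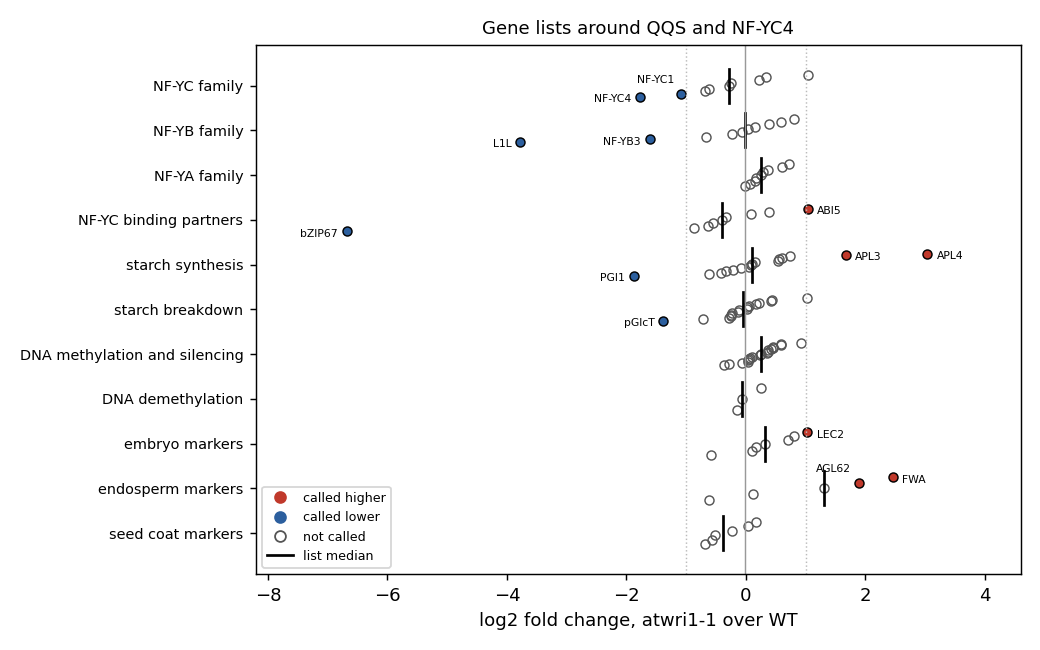
Log2 fold change of *atwri1-1* over WT for the tested members of 11 gene lists. Filled points were called higher (red) or lower (blue), open points were not called, black bars are list medians, and dotted lines mark the fold limit. NF-YC4 stood at -1.77, L1L at -3.77 and bZIP67 at -6.68, and the called starch synthesis genes stood on both sides of 0.

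Starch genes were examined because QQS is known for its effect on leaf starch. Of 17 starch synthesis genes, 16 were tested, 2 were called higher and 1 lower, and the median was 0.10. APL4 and APL3 encode large subunits of ADP-glucose pyrophosphorylase, which makes the glucosyl donor of starch. APL4 was at 95.7, 93.2 and 97.6 CPM in *atwri1-1* and 14.8, 11.2 and 8.63 CPM in WT (3.04, SE 0.209, edgeR adjusted p = 0.000330). APL3 was at 20.0, 23.7 and 19.3 CPM against 9.58, 5.57 and 4.57 CPM (1.67, SE 0.286, edgeR adjusted p = 0.0122), a call that was lost without any 1 of the *atwri1-1* libraries. PGI1, the plastid phosphoglucose isomerase that feeds the pathway from fructose 6-phosphate, fell from 224 ± 37.8 CPM to 61.2 ± 3.51 CPM (SD, n = 3 each, edgeR adjusted p = 0.000933). APS1, the catalytic small subunit and the most abundant of the list, was at 325 ± 28.8 against 305 ± 68.7 CPM (SD, n = 3 each). Of 16 starch breakdown genes, all were tested and 1 was called lower, pGlcT, the plastid glucose translocator, at 156 ± 9.86 against 406 ± 29.8 CPM (SD, n = 3 each, -1.38, SE 0.130, edgeR adjusted p = 0.00125). The median of that list was -0.05, and its most abundant member, the plastid glucan phosphorylase PHS1, was not called (-0.11, SE 0.179).

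Genes of DNA methylation were examined because the QQS promoter is known to be methylated in plants where QQS is silent. Of 19 genes for methylation and silencing, all were tested and none was called in either direction. Of these, 16 had a log2 fold change above 0, and the median was 0.26. NRPD1, the largest subunit of RNA polymerase IV, which starts the synthesis of small interfering RNAs, was at 33.7, 28.3 and 29.9 CPM in *atwri1-1* and 16.0, 15.3 and 17.3 CPM in WT (0.92, SE 0.139, edgeR adjusted p = 0.00766). VIM1, needed to keep CG methylation, was at 322 ± 16.7 against 214 ± 21.8 CPM (SD, n = 3 each, 0.59, edgeR adjusted p = 0.0346). These were the 2 members past the p threshold, and both were short of the fold limit. They were named after their values were seen. MET1, the methyltransferase that maintains CG methylation, was at 221, 236 and 229 CPM in *atwri1-1* and 88.2, 187 and 182 CPM in WT, with the lowest value in WT replicate 1 (0.59, SE 0.275, edgeR adjusted p = 0.237). AGO4, the effector of RNA-directed DNA methylation and the most abundant member, was not called (0.36, SE 0.163). Of 4 demethylase genes, 3 were tested and none was called. ROS1, which removes methylated cytosine and was the most abundant of them, was at 511 ± 36.4 against 532 ± 48.3 CPM (SD, n = 3 each).

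Whether the rise at the QQS locus had a counterpart nearby could hardly be measured. Within 50000 bases of QQS, 25 genes are annotated, 20 of them pseudogenes and 3 protein-coding. GDU6, a glutamine dumper gene 2539 bases after QQS, was the only neighbour with reads, and these were 2 reads in *atwri1-1* replicate 3. The pseudogenes on either side of QQS, 341 bases before it and 446 bases after it, had no counts in the files used here. Reads were mapped to primary transcripts only, so a locus without counts may not have been measured at all. No neighbour of QQS could be tested.

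The surroundings of NF-YC4 are richer in genes. Of 39 annotated neighbours within 50000 bases, 31 had reads, 26 were tested, 1 was called lower and none higher, with a median of 0.01. The start of the counted transcript of AT5G63480, a Mediator subunit gene, lies 49 bases from the start of NF-YC4 on the opposite strand. It was at 5.30, 5.33 and 5.41 CPM in *atwri1-1* and 22.0, 7.08 and 6.82 CPM in WT. Its log2 fold change of -1.16 (SE 0.470, edgeR adjusted p = 0.178) rested on WT replicate 1, without which it was -0.38. As annotated, the whole AT5G63480 gene (chr5:25416833-25418635) overlaps NF-YC4. The exons of the 2 counted transcripts share 0 bases, and the reads were counted without strand. Whether other transcripts of AT5G63480 added reads to NF-YC4 was not tested. AT5G63460, 8 bases beyond the other end of NF-YC4, did not differ beyond its error (-0.01, SE 0.162, edgeR adjusted p = 0.988). The called neighbour was GSA1, a gene of tetrapyrrole synthesis 34601 bases away, at 53.9 ± 5.12 against 113 ± 32.7 CPM (SD, n = 3 each, -1.07, SE 0.213, edgeR adjusted p = 0.0220). That call was lost without any 1 of the *atwri1-1* libraries or WT replicate 1.

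Genes as small as QQS were examined as a group. Of 289 genes with reads whose proteins have at most 60 residues, 90 were tested. QQS, selected for its rise, was the only member called higher, which is 1 of 90 against 1.08% of all tested transcripts, and 3 were called lower. These counts are not a result about small genes, since they lie near the 1.08% and 5.31% over all transcripts. The median was -0.66, with 70 of 90 below 0. RCI2A, a membrane protein gene induced by cold, fell from 48.0, 29.5 and 30.7 CPM in WT to 1.37, 1.58 and 2.71 CPM in *atwri1-1* (-4.29, SE 0.328, edgeR adjusted p = 0.000492). AT3G47965 fell from 37.5, 18.8 and 16.0 CPM to 1.19, 1.33 and 1.69 CPM (-4.11, SE 0.400, edgeR adjusted p = 0.00140). AT1G06515 was at 14.7, 13.8 and 12.0 CPM against 111, 34.5 and 39.3 CPM (-2.19, SE 0.453, edgeR adjusted p = 0.0250), a call that was lost without any 1 of the *atwri1-1* libraries. The summed level of these small genes was 7524 CPM in WT replicate 1 and 2830 to 3136 CPM in the other libraries, so that library stood apart here as it did for NF-YC4. The part of this difference between libraries in the values of NF-YC4 was not tested beyond the value without WT replicate 1.

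The transcripts most like each gene over the 6 libraries were found by the root mean square difference of log2(CPM + 0.5) values centred on their means, among 12286 others with a mean of at least 10 CPM. No transcript came close to QQS, a gap that its choice as the largest rise fixed, since this difference grows with the size of the change. The nearest was ALMT1 at a difference of 0.957, with 70.5, 40.4 and 25.7 CPM in *atwri1-1* and 2.75, 2.92 and 0.863 CPM in WT. It was followed by the transketolase gene AT2G45290 (1.17), GPT2, a glucose 6-phosphate translocator of plastids (1.21), the lipid transfer protein gene LTP2 (1.23) and APL4 (1.23). NF-YC4, whose fall was ordinary in size among the transcripts called lower, had closer companions, and the 2 sets of differences are not compared. AT5G50100, a putative oxidoreductase gene, differed by only 0.0625, with 5.67, 4.93 and 4.28 CPM in *atwri1-1* and 22.5, 13.3 and 15.2 CPM in WT. The others were the acyltransferase gene LPLAT2 (0.0817), the translation initiation factor gene AT4G30690 (0.0830), DWF1, a gene of brassinosteroid synthesis (0.0980), and AAE7, an acyl-activating enzyme gene (0.104). All 5 were highest in WT replicate 1, as NF-YC4 was, and the likeness is a description over 6 libraries of 2 genotypes.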

How the data were processed

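RNA-Seq counts per TAIR10 primary transcript were deposited for 6 libraries (3 *atwri1-1*, 3 WT). The authors removed rRNA reads and mapped the rest with bowtie 0.12.7 (at most 2 mismatches, 10 bases trimmed at the 5' end and 4 at the 3' end), keeping reads with 1 best place. The cDNA was amplified before fragmentation, so reads are not independent molecules. The row naming no transcript (39.6% to 86.6% of a file) was left out. A deposited table of normalized values of the same libraries was not used.

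Counts were filtered (filterByExpr, 18241 kept), scaled by TMM and tested with edgeR 4.0.16 (glmQLFit, glmQLFTest) in R 4.3.3, without a block, with Benjamini-Hochberg adjustment. CPM is reads per 1000000 of the scaled library. Genes and lists were chosen with earlier results of these data known. By the rule used, QQS, NF-YC4, WRI1 and all NF-YC genes are named, with the called and the most abundant members of each other list, the nearest or called neighbours and 5 genes most like each. MEA, PHE1, ZOU, FIS2, CRA1, BCCP2, PKP-BETA1, BAN, TT10, LEC1, NRPD1, VIM1, MET1 and the genes ranked around QQS are named outside it. Unless listed as called, they were chosen after their values were seen.

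Same-numbered libraries of the 2 genotypes deviated together (correlations 0.273, 0.280 and 0.236, against -0.233 to 0.0228 for other pairs). This pairing comes from the values, and the description of WT replicate 3 carries another number than its title. Gene models, motifs and sequences are from RefSeq's TAIR10.1, in which 24172 of 24509 counted transcripts were found. Scripts were tested on simulated data. Alternatives were other filters, scalings, models and thresholds, a replicate block and the omission of single libraries.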

Additional observations from a re-analysis of the deposited data

How the results depend on the processing

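The differences of QQS and NF-YC4 kept their direction and stayed more than 1 from 0 on the log2 scale under all 13 alternatives. With the replicate block, which pairs libraries of the same number, they were 6.56 and -1.73, the block changed no count of calls by more than 1.5 times, and of the named calls only that of AGL62 was lost. Library sizes alone in place of TMM moved the median of all transcripts from -0.01 to 0.17. It moved the medians of the NF-YB, starch breakdown and demethylation lists above 0 (0.16, 0.12 and 0.11), and that of NF-YC to -0.10. It also gave 344 transcripts called higher in place of 197, 1 called NF-YC gene in place of 2, 1 methylation gene in place of 0 and 0 neighbours in place of 1. DESeq2 gave 327 higher transcripts and 13 called small protein genes in place of 4, and limma-voom gave 1 called binding partner in place of 2. An adjusted p of at most 0.01 left 72 transcripts higher and 544 lower (of 968), and 1 NF-YC gene, 1 NF-YB gene (of 2), 1 binding partner and 0 neighbours. With no fold limit, 485 transcripts were higher, and 4 NF-YC, 1 NF-YA (of 0), 6 starch synthesis (of 3) and 2 methylation genes and 2 neighbours were called. Leaving out each library in turn gave 74 to 364 transcripts higher and 545 to 1087 lower, 1 to 2 NF-YC genes, 1 to 2 binding partners, 2 to 3 NF-YB genes, 2 to 3 starch synthesis genes, 3 to 6 small protein genes and 0 to 1 neighbours. The higher count was lowest without *atwri1-1* replicate 3 (74) and highest without WT replicate 1 (364). The lower count was lowest without *atwri1-1* replicate 2 (545). Apart from the smaller number of libraries when one is left out and the changed thresholds, the cause was not tested. In WT, QQS is at the depth limit, since 3 reads correspond to 0.236 to 0.265 CPM there.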
